A study of Mus musculus with 2 samples.

Results

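The FGF receptors examined here are the 4 receptor tyrosine kinases Fgfr1, Fgfr2, Fgfr3 and Fgfr4 and the related membrane protein Fgfrl1, which lacks the kinase domain. They were chosen by gene family and matched by symbol, which gave 5 of 55536 genes and 71 of 141862 annotated transcripts. The libraries were polyA RNA-seq, primed with oligo-dT, of mouse limb at embryonic day 12.5 (strain B6NCrl, both sexes mixed, described as healthy). Limbs of 88 embryos were pooled for replicate 1 and limbs of 68 embryos for replicate 2, and 10 ng of RNA entered each library. No second tissue, age, genotype or treatment was given for these samples, so values describe 1 group, and no p-value is reported. The smallest two-sided p that exact permutation of 2 against 2 values allows is 0.333.

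FGF receptors bind FGFs through immunoglobulin-like (Ig) loops outside the cell, together with heparan sulfate, and signal through adaptors such as FRS2 to the MAP kinase cascade. In Fgfr1, Fgfr2 and Fgfr3, the C-terminal part of the third Ig loop is encoded by either of a pair of alternative exons, IIIb and IIIc, and this choice sets which ligands bind. In the early limb, the IIIb form of Fgfr2 is known from the ectoderm, where it receives Fgf10 from the mesenchyme. IIIc forms are known from the mesenchyme, which receives Fgf8 and other FGFs from the apical ectodermal ridge. Fgfr3 is known for its role in growth-plate cartilage, and Fgfr4 has no such pair of exons.

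The exon pair that separates these forms was found in the GENCODE M21 annotation of mm10 as coding exons that share both neighbours and are not joined in 1 coding transcript. It was found once each in Fgfr1, Fgfr2 and Fgfr3 and not in Fgfr4 or Fgfrl1. The pair of Fgfr3 is shown 5′ to 3′ as an example of the exons on which the isoform results rest. Capitals mark bases that differ from, or have no partner in, the other exon in a global alignment.
Fgfr3 IIIc exon, chr5:33732117-33732261, plus strand: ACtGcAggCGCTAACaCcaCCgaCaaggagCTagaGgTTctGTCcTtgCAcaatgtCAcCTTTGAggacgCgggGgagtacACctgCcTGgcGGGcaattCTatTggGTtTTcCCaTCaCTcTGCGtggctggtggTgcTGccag
Fgfr3 IIIb exon, chr5:33731281-33731431, plus strand: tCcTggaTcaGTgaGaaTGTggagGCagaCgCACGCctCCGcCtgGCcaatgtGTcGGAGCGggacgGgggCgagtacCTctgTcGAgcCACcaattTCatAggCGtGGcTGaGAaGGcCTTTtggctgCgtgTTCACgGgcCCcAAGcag
The IIIc exon was 145 nt in each of these genes, and the IIIb exon was 151 nt in Fgfr1, 148 nt in Fgfr2 and 151 nt in Fgfr3. In Fgfr3, 685 nt lay between the pair, and its IIIc and IIIb exons were 50.6% identical over the alignment. Reads inside the alternative exon therefore differ in many bases between the IIIc and IIIb forms of Fgfr3.

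All 5 receptor genes were detected in both libraries, in the order Fgfr1, Fgfr2, Fgfrl1, Fgfr3 and Fgfr4. Levels are in TPM (transcript abundance relative to all transcripts in the library), which the authors scaled by effective length and depth, so that genes can be compared per length. Fgfr1 (ENSMUSG00000031565.18, chr8:25513654-25575718, plus strand), the main mesenchymal FGF receptor of the limb bud, stood at 116.65 TPM in replicate 1 and 109.31 TPM in replicate 2. Fgfr2 (ENSMUSG00000030849.18, chr7:130162451-133123350, minus strand) stood at 96.08 and 89.37 TPM. Fgfrl1 (ENSMUSG00000008090.14, chr5:108692382-108706924, plus strand), whose product binds FGFs without a kinase, stood at 47.85 and 44.00 TPM. The first pair of genes was above 89 TPM in each library, and Fgfrl1 lay clearly under both. Fgfr3 (ENSMUSG00000054252.18, chr5:33721674-33737068, plus strand) stood at 21.91 and 19.56 TPM. Fgfr4 (ENSMUSG00000005320.9, chr13:55152640-55168759, plus strand), a receptor known from embryonic muscle precursors, stood at 4.76 and 5.88 TPM. These levels placed Fgfr1 at rank 1540 of all genes by mean TPM, Fgfr2 at 1910, Fgfrl1 at 3926, Fgfr3 at 6945 and Fgfr4 at 11164.

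**Figure D1:**
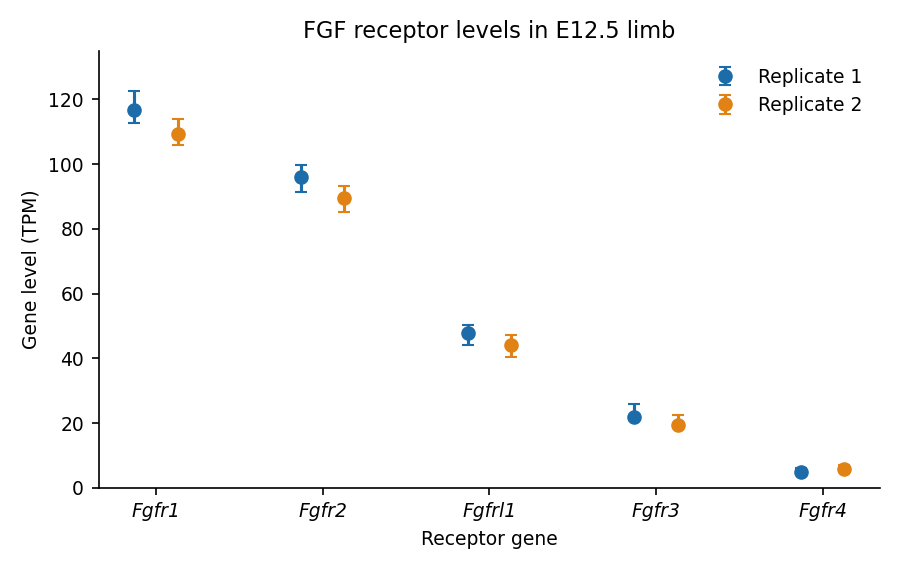
Gene level in TPM (vertical axis) of each receptor gene in replicate 1 and replicate 2; points are the authors' estimates and bars the intervals they deposited. The points of each receptor lie closer to each other than to those of the next receptor in the order.

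As mean and spread, Fgfr1 averaged 113 ± 5.19 TPM, Fgfr2 92.7 ± 4.74, Fgfrl1 45.9 ± 2.72, Fgfr3 20.7 ± 1.66 and Fgfr4 5.32 ± 0.792 TPM (SD, n = 2 each). Of the summed TPM of the receptors, 287.25 in replicate 1 and 268.12 in replicate 2, Fgfr1 held 40.7%, Fgfr2 33.4%, Fgfrl1 16.5%, Fgfr3 7.46% and Fgfr4 1.93% on average. In bulk tissue a lower level from fewer expressing cells and a lower level from less RNA per cell cannot be told apart. To judge neighbours in this order, a between-library spread was set for each pair: among 500 genes of about the lower gene's level, 95% had a log2 change between libraries no larger than it. The smaller log2 ratio of Fgfr1 over Fgfr2 was 0.28, a mean 1.22-fold difference, against a spread of 0.21. Fgfr2 exceeded Fgfrl1 by a log2 ratio of at least 1.01 (2.02-fold on average, spread 0.26). Fgfrl1 exceeded Fgfr3 by at least 1.13 (2.22-fold, spread 0.34), and Fgfr3 exceeded Fgfr4 by at least 1.73 (3.91-fold, spread 0.61). All 4 neighbour pairs thus lay past this spread, which measures change of the same gene between libraries and not the error of comparing different genes. With the spread set to take in 99% of those genes, 0.34 on the log2 scale at Fgfr2's level, Fgfr1 and Fgfr2 were no longer separated.

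Replicate 1 was the higher library for Fgfr1, Fgfr2, Fgfr3 and Fgfrl1, by 1.07-fold, 1.08-fold, 1.12-fold and 1.09-fold in TPM. None of the 5 receptors differed 1.5-fold between the libraries, against 7.85% of the 15926 genes at a mean of at least 1 TPM. At a mean of at least 5 TPM, which all 5 receptors reached, the share of genes was 1.90%. None differed 2-fold, against 3.39% of the genes at a mean of at least 1 TPM. Fgfr4 alone was lower in replicate 1, at a TPM ratio of 0.810. Its expected counts were 303 in replicate 1 and 298 in replicate 2, and scaled for library size by edgeR's TMM method their ratio was 1.03, so the direction for Fgfr4 depended on the unit. The coding transcript Fgfr4-201 had 4.76 TPM in replicate 1 and 4.44 TPM in replicate 2. The 2 short noncoding models were listed at 0 in replicate 1, and in replicate 2 Fgfr4-202 had 0.93 TPM and Fgfr4-203 had 0.51 TPM. The higher gene-level TPM of replicate 2 thus lay in the noncoding models. Depth was alike, with 29633457 and 30118921 expected counts over genes. The receptors held 8865 and 8361.95 of these in Fgfr1, 5702.91 and 5416.2 in Fgfr2, 1830 and 1692 in Fgfrl1, and 1596.55 and 1368.38 in Fgfr3.

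The receptors differed in which form of the third Ig loop they carried. Fgfr1 transcripts with a single exon of the pair were almost wholly IIIc, those of Fgfr3 were mostly IIIc, and those of Fgfr2 were split between IIIc and IIIb. Transcript levels are the authors' model estimates, in which reads shared by several transcripts are divided among them, so a form's level also rests on reads outside the alternative exon. IIIc transcripts of Fgfr1 summed to 92.34 TPM in replicate 1 and 84.30 in replicate 2, and IIIb transcripts to 0.26 and 0.24 TPM. IIIc made up 99.7% of IIIc and IIIb together in each library. All of the IIIb level was in Fgfr1-213, on 14.36 and 13.4 expected counts. A further transcript, Fgfr1-208, holds both exons in a row and is annotated as a target of nonsense-mediated decay, the pathway that degrades transcripts with an early stop. It stood at 6.55 and 6.04 TPM, above Fgfr1-213 in each library. If it is counted with IIIb, the IIIc share of Fgfr1 is 93.1%, a setting chosen after the data were seen.

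In Fgfr2, IIIc transcripts summed to 31.51 and 29.77 TPM and IIIb transcripts to 27.25 and 24.82 TPM. IIIc was the higher form in each library, and its share of both forms together was 54.1% ± 0.643 (SD, n = 2). The IIIc level came from Fgfr2-207 and Fgfr2-215, and the IIIb level from Fgfr2-211 and Fgfr2-208. The other 11 IIIb or IIIc models were listed at 0 in both libraries. Each of the models with a level ends at a different annotated 3′ position, so the split between the forms cannot be told apart from an effect of those ends. The SD shows how alike the libraries were, not the error of dividing shared reads among models. The share depended on the annotation: with GENCODE M4 the IIIc forms had 35.55 and 34.95 TPM and the IIIb forms 18.92 and 17.90 TPM, a IIIc share of 65.7%. Fgfr2-211, the main IIIb model, is 4311 nt long in M21 and 3053 nt in M4, and it averaged 20.8 TPM with M21 and 11.0 TPM with M4. Fgfr2-208 stood at 4.95 and 5.46 TPM, but the authors' interval for it ran from 0.00511 to 5.07 TPM in replicate 1 and from 2.50 to 6.26 TPM in replicate 2.

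In Fgfr3, IIIc transcripts summed to 14.64 and 12.96 TPM and IIIb transcripts to 3.70 and 2.72 TPM. IIIc was higher in each library, with a share of 81.2% ± 2.00 (SD, n = 2). The IIIb level was divided between Fgfr3-203, at 2.22 and 1.16 TPM, and Fgfr3-211, at 1.48 and 1.56 TPM. The authors' intervals for these models reached down to 3.22e-05 and 2.52e-05 TPM for Fgfr3-203 and to 0.000261 and 6.11e-05 TPM for Fgfr3-211. With M4, Fgfr3-203 was listed at 0 and Fgfr3-211 had 4.41 and 4.16 TPM. IIIc exceeded IIIb in Fgfr1, Fgfr2 and Fgfr3 in both libraries and with both annotations.

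**Figure D2:**
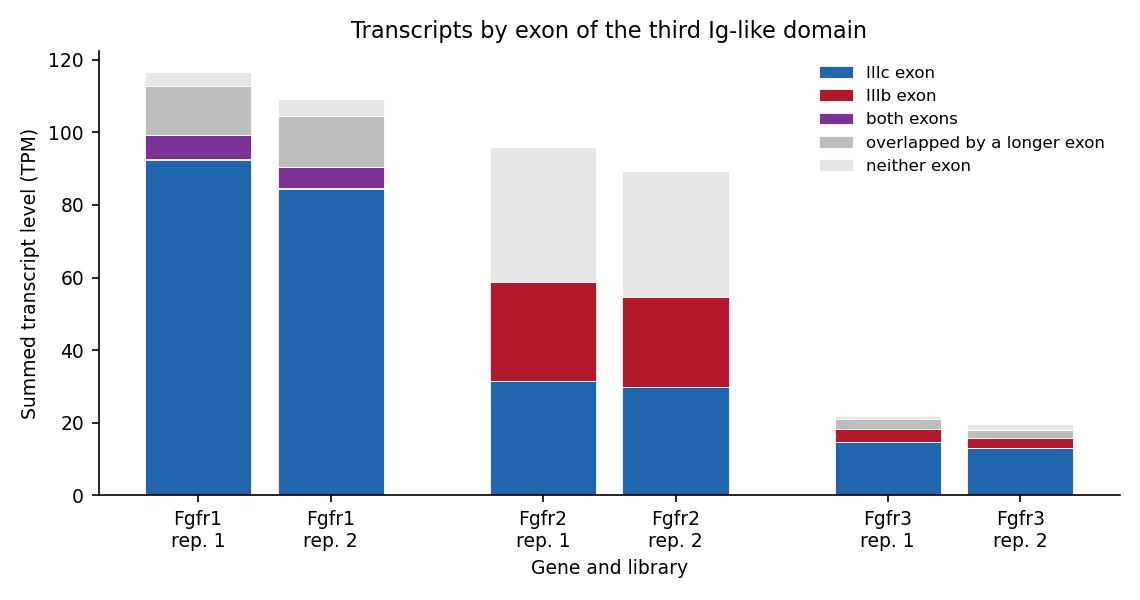
Summed transcript level in TPM (vertical axis) of Fgfr1, Fgfr2 and Fgfr3 in each library, stacked by the exon of the third Ig-like domain that the transcripts hold. The IIIb segment is too thin to see in Fgfr1 (0.26 and 0.24 TPM) and is 27.25 and 24.82 TPM high in Fgfr2.

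Epithelial and mesenchymal RNA were both present. The 6 limb epithelium markers, among them the keratin Krt14 at 120 ± 7.21 TPM and the adhesion protein Epcam at 44.0 ± 2.52 TPM (SD, n = 2 each), were all above 1 TPM in both libraries and summed to 299 and 274 TPM. The 5 mesenchyme markers summed to 853 and 842 TPM. Esrp1 and Esrp2, epithelial splicing factors that promote the IIIb exon of Fgfr2, were low: Esrp1 had 7.03 and 5.98 TPM, and Esrp2 had 6.32 and 5.89 TPM. Esrp1 is itself one of the 6 epithelium markers. Cartilage markers (5 of 5), muscle markers (4 of 4) and endothelium markers (3 of 3) were also above 1 TPM in both libraries, against 1 of 3 liver markers and 0 of 4 neural tube markers. Of the 5 cartilage markers, 2 differed 1.5-fold between the libraries, against 7.85% of genes at a mean of at least 1 TPM and 1.90% at a mean of at least 5 TPM. Acan had 8.07 and 3.90 TPM and Matn1 had 23.97 and 9.65 TPM, whereas Sox9 had 197.14 and 195.16 TPM. The part of each cell type in the receptor forms was not tested.

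Transcripts without an exon of the pair made up much of Fgfr2 in the authors' estimates. They summed to 37.32 and 34.78 TPM, 38.9% of the gene, and the largest of them was Fgfr2-217, at 20.25 and 20.70 TPM. Fgfr2-217 is annotated as protein-coding with 5 coding exons at the 3′ end and 546 coding nt, and shares its 3′ end with Fgfr2-211. Fgfr2-217 starts at chr7:133123350, whereas no other Fgfr2 model reaches beyond chr7:130266263. Of its 2425 nt, 314 are found in no other Fgfr2 model, so most of its sequence is shared. The retained-intron model Fgfr2-221 followed at 8.77 and 6.15 TPM. In Fgfr1, transcripts with neither exon summed to 3.93 and 4.73 TPM, and the retained-intron model Fgfr1-206, in which a single exon runs from within the IIIb exon to the end of the IIIc exon, stood at 13.56 and 14.00 TPM. Fgfr3-205, a retained-intron model with a longer exon that overlaps the pair, stood at 2.73 and 2.24 TPM.

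Fgfr1 had 1 leading transcript, whereas the largest transcript held 22.4% of Fgfr2 and 25.7% of Fgfr3 on average. Fgfr1-202, a IIIc form, had 57.90 and 55.53 TPM, or 50.2% ± 0.821 of its gene, followed by the IIIc forms Fgfr1-201 at 22.66 and 21.95 TPM and Fgfr1-203 at 11.11 and 6.82 TPM. Fgfr2-211 held 22.4% ± 1.09 of its gene. With M4 it held 10.7%, and Fgfr2-217 was then the largest Fgfr2 transcript, at 27.7 TPM. Next in level with M21, Fgfr2-217 held 22.1%, Fgfr2-207 held 17.2% (15.81 and 16.03 TPM) and Fgfr2-215 held 15.9% (15.70 and 13.74 TPM). Fgfr3-209 held 25.7% ± 7.45 (4.48 and 6.06 TPM) and Fgfr3-215 22.5% (4.10 and 5.14 TPM), both IIIc forms. Among 1944 protein-coding genes with at least 10 transcripts and a mean of at least 5 TPM, the most abundant transcript was under 50% of its gene in 60.8%, and its median share was 44.3%. Of those genes, 61.1% had a lower top share than Fgfr1, 4.99% a lower one than Fgfr2 and 9.05% a lower one than Fgfr3. Fgfr4 and Fgfrl1 have fewer than 10 transcripts and are outside that set.

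Several transcripts could hardly be placed from these libraries. Of the 27 Fgfr2 models, 16 were listed at 0 in both libraries, and 16 had no base that is absent from all other models of the gene. Of the 16 protein-coding Fgfr2 models with a complete coding sequence, 13 end at the same annotated 3′ position and 12 of these were at 0, while the 3 such models with other ends all had a level. Fgfr3-201, a IIIc form, had 3.40 TPM in replicate 1 (authors' interval 0.960 to 7.38) and was listed at 0 in replicate 2 (interval up to 2.34). Those intervals overlap. The intervals of Fgfr1-203 also overlapped, from 5.93 to 14.8 TPM in replicate 1 and from 3.46 to 10.8 TPM in replicate 2. Fgfr3-210, another IIIc form, had 1.98 and 1.12 TPM, and the IIIc-bearing retained-intron model Fgfr3-204 had 0.68 and 0.64 TPM.

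**Figure D3:**
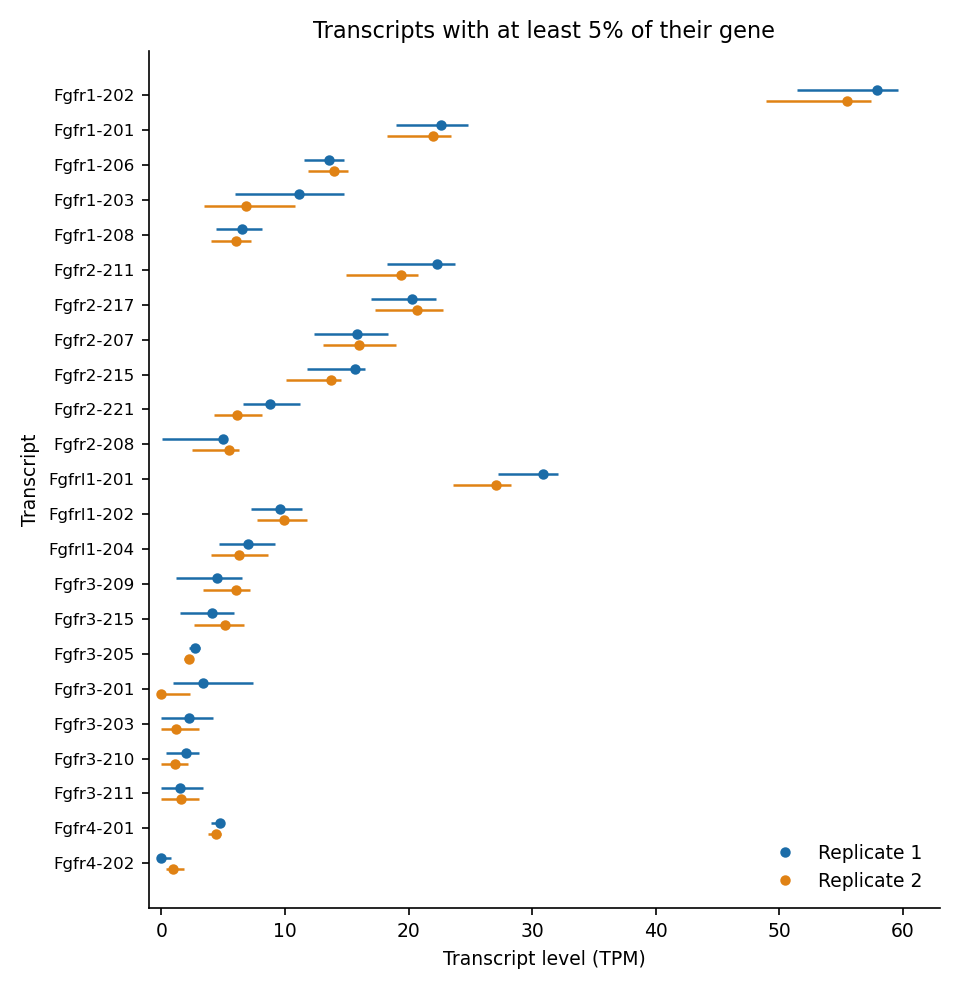
Level in TPM (horizontal axis) of each receptor transcript with at least 5% of its gene's TPM on average, in replicate 1 and replicate 2; lines are the authors' deposited intervals. Fgfr1-202 stands apart at 57.90 and 55.53 TPM, and the intervals of Fgfr3-209 and Fgfr3-215 overlap in each library.

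In the authors' estimates, the second coding exon was mostly kept in Fgfr1 and mostly skipped in Fgfr2. In Fgfr1, Fgfr2 and Fgfr3 it carries the first Ig loop. Forms without this loop are known in human FGFR1 to bind ligand more tightly. In Fgfr1, complete coding transcripts with the exon summed to 81.23 and 77.48 TPM and those without it to 11.37 and 7.06 TPM, a share with the exon of 89.7% ± 2.78 (SD, n = 2). In Fgfr2, those with the exon summed to 15.70 and 13.74 TPM and those without it to 43.06 and 40.85 TPM, a share with the exon of 25.9% ± 1.10. With M4 the share was 82.2% ± 2.37 in Fgfr1 and 16.5% ± 0.273 in Fgfr2, so Fgfr1 stayed the higher. These SDs show how alike the libraries were, not the error of dividing shared reads among models. Of the complete Fgfr2 coding models with the exon, only Fgfr2-215 had a level. The others all end at the annotated 3′ position where most complete models were at 0. In Fgfr3 and Fgfr4, all annotated complete coding models hold the exon, so its skipping could not be measured there. In Fgfrl1, Fgfrl1-201 with the exon had 30.91 and 27.12 TPM and Fgfrl1-202 without it had 9.57 and 9.88 TPM, a share with the exon of 74.8% ± 2.16. The short model Fgfrl1-204, of 438 nt, had 7.01 and 6.31 TPM. With M4, which lists 2 Fgfrl1 transcripts, Fgfrl1-201 held 90.0% of the gene.

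**Figure D4:**
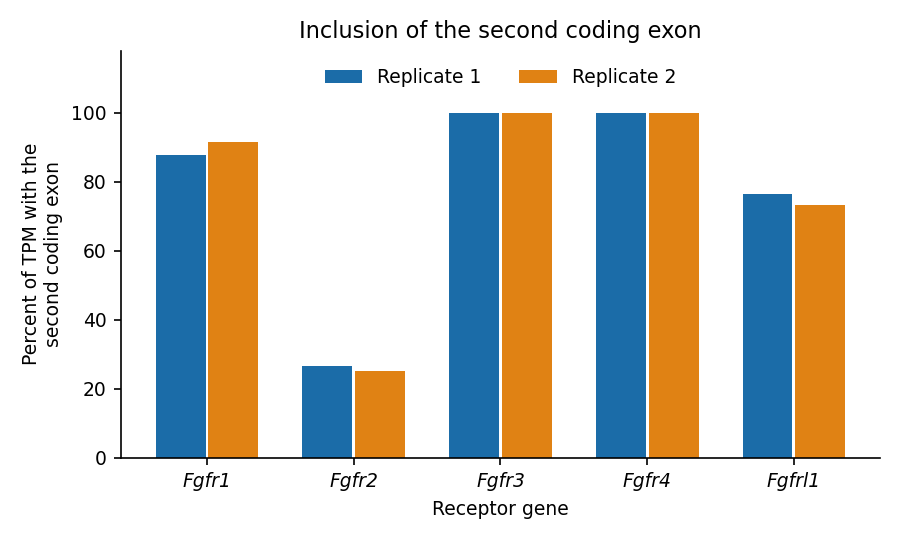
Percent of the TPM of complete coding transcripts that include the second coding exon (vertical axis) for each receptor gene in replicate 1 and replicate 2. Fgfr2 has the lowest inclusion, 25.9% on average, against 89.7% in Fgfr1 and 74.8% in Fgfrl1. No complete coding model without the exon is annotated for Fgfr3 or Fgfr4.

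In Fgfr2 the first Ig loop and the acid box, a run of acidic residues after that loop, were lost in combination with both forms of the third loop. Fgfr2-215 (IIIc) holds both, Fgfr2-207 (IIIc) and Fgfr2-211 (IIIb) lack both, and Fgfr2-208 (IIIb) lacks the first loop and keeps the acid box. Transcripts with the acid box exon summed to 20.65 and 19.20 TPM and those without it to 38.11 and 35.39 TPM, a share of 35.2% with the exon (30.4% with M4). None of the Fgfr2 IIIb models with the first loop had a level in either library. All of these models end at the annotated 3′ position where 12 of 13 complete coding models were at 0. Absence of the first loop from IIIb forms thus cannot be told apart from an effect of the annotated 3′ end. In Fgfr3, transcripts with the acid box exon summed to 13.56 and 9.90 TPM, or 71.3% ± 7.75, and the remainder was Fgfr3-215. M4 does not list Fgfr3-215, and with M4 the share with the exon was 97.6% ± 0.472. In Fgfr1, all annotated complete coding models hold this exon, so its loss could not be measured. It came in 2 lengths, 84 nt at 58.83 and 55.77 TPM and 90 nt at 33.77 and 28.77 TPM.

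A further choice of 6 bases in Fgfr2 adds or removes Val-Thr just inside the membrane, in the region that in FGFR1 docks the adaptor FRS2. The bases lie at the end of the transmembrane exon and are shown because this choice separates Fgfr2-207 from the other 3 abundant receptor forms.
Fgfr2 Val-Thr bases, chr7:130196172-130196177, minus strand: GTAACA
When these bases were taken out of the coding sequence of a long model in the computer, its translation lost Val-Thr and was otherwise the same; annotated models can differ in other exons too. The short form of the exon, 197 nt, had 15.81 and 16.03 TPM, all of it in Fgfr2-207, and the long form, 203 nt, had 42.95 and 38.56 TPM. The short form thus made up 28.1% ± 1.74 of complete Fgfr2 coding transcripts (SD, n = 2), and Fgfr2-207, its only model with a level, is a IIIc form. Its other models, IIIb forms among them, all end at the annotated 3′ position where 12 of 13 complete coding models were at 0. Absence of the short form from IIIb forms thus cannot be told apart from an effect of the annotated 3′ end. With M4 the short form made up 49.2% ± 0.339, so the share of the short form depended strongly on the annotation. All complete coding models of Fgfr1 are annotated with an exon of 203 nt, and all those of Fgfr3 with 191 nt. Another length could thus not be measured in these genes.

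The share of a gene's TPM in transcripts annotated as protein-coding was 78.5% ± 1.58 for Fgfr1, 83.2% ± 1.42 for Fgfr2, 81.4% ± 0.465 for Fgfr3, 87.8% ± 17.3 for Fgfr4 and 98.8% ± 0.562 for Fgfrl1 (SD, n = 2 each). The median share in transcripts of other types over the 1944 genes above was 26.3%, and those of Fgfr1, Fgfr2 and Fgfr3 lay under it. Fgfr4 and Fgfrl1 are outside that set of genes and were not compared with it. The wide SD of Fgfr4 is that of the 2 noncoding models listed at 0 in replicate 1.

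Of 101 other genes of the FGF pathway, 86 were at 1 TPM or more in both libraries, against 27.3% of all genes and 58.1% of protein-coding genes. The median of these 86 was 24.1 TPM, beside 17.1 TPM for the 15181 genes at 1 TPM or more in both libraries. Of the 88 at a mean of 1 TPM, 4.55% differed 1.5-fold between the libraries, against 7.85% of all genes at that minimum. They were Fgf2, Fgf5, Hs6st1 and Akt1, named here after their values were seen. The FGF ligands were the scarcest list, with 9 of 22 genes at 1 TPM in both libraries and a median of 0.77 TPM. The highest were Fgf13 (15.6 ± 1.00 TPM), an FGF homologous factor that stays inside the cell, Fgf18 (14.7 ± 0.672), a ligand known from skeletal development, Fgf8 (13.6 ± 1.06), a ridge signal, and Fgf9 (10.7 ± 1.18), an activator of IIIc receptors (SD, n = 2 each). Fgf3 and Fgf21 had 0 reads, so at 3 reads per library the upper limit is 0.113 and 0.111 TPM for Fgf3, and 0.178 and 0.177 TPM for Fgf21. Fgf10 and Fgf7 are among the ligands of the IIIb form of Fgfr2 and were looked up for that role after values were seen. Fgf10 had 7.09 and 6.30 TPM and Fgf7 had 3.23 and 3.22 TPM. Both were thus detected beside this receptor form, but they are not a full set of its ligands. Fgf12 lay between Fgf10 and Fgf7, at 3.93 and 4.13 TPM. Further genes of the ligand list were lower, such as Fgf1 at 1.00 and 1.10 TPM and Fgf22 at 0.47 and 0.19 TPM.

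Co-receptors and heparan sulfate genes were at 1 TPM in both libraries for 19 of 21 genes (median 27.9 TPM). The glypican Gpc3 led at 935 ± 0.955 TPM, followed by the syndecan Sdc1 at 205 ± 5.69, the glypican Gpc1 at 67.1 ± 2.17 and the heparan sulfate polymerase subunit Ext2 at 65.7 ± 3.95 TPM. The exceptions were the Klotho co-receptors of endocrine FGFs, of which Klb was the lowest at 0.04 TPM. All 26 adaptors and kinases passed (median 62.6 TPM). Among the most abundant were the MAP kinase kinase Map2k2 at 177 ± 7.74 TPM and the adaptor Crk at 106 ± 1.84 TPM, and the adaptor Gab2 was lowest at 3.73 ± 0.325 TPM (SD, n = 2 each). Akt1, a kinase downstream of PI3K, had 52.30 TPM in replicate 1 and 124.31 TPM in replicate 2. It was the only gene of the 26 in this list that differed 1.5-fold between the libraries, against 7.85% of genes at a mean of at least 1 TPM.

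All 16 inhibitors and response genes were at 1 TPM in both libraries (median 13.2 TPM). The ERK phosphatase Dusp6 was highest at 94.2 ± 1.34 TPM, ahead of the feedback inhibitor Spry2 at 55.9 ± 11.6, the ETS factor Etv5 at 32.3 ± 3.21 and the transcription factor Myc at 24.3 ± 2.27 TPM, and Spry3 was lowest at 1.75 ± 0.0707 TPM (SD, n = 2 each). All 16 regulators of receptor splicing were also at 1 TPM (median 139 TPM). The most abundant were the general factors Hnrnpa1 at 1112 ± 50.2 TPM, Hnrnpf at 579 ± 0.339, Hnrnph1 at 515 ± 10.6 and Srsf1 at 410 ± 10.1 TPM, and Rbfox1 was lowest at 1.80 ± 0.354 TPM. Esrp1 and Esrp2 stood near the low end of this list. None of the genes in the response and splicing lists differed 1.5-fold between the libraries, against 7.85% of genes at a mean of at least 1 TPM.

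**Figure D5:**
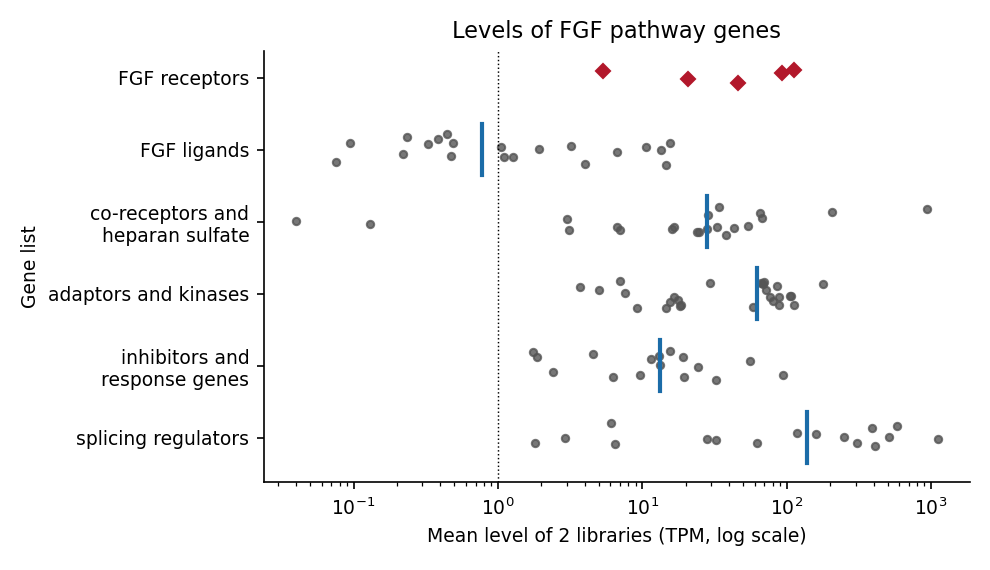
Mean level of both libraries in TPM (horizontal axis, log scale) of the 5 receptors (red diamonds) and of the genes in each pathway list (grey points, genes at 0 not drawn); blue bars are list medians over all members and the dotted line is 1 TPM. The ligand list has the lowest median, 0.77 TPM, and the splicing regulators the highest, 139 TPM.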

How the data were processed

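PolyA RNA-seq of 2 pools of E12.5 limbs was used, with replicate numbers as the labels give them. Per the labels' protocols, cDNA was primed with oligo-dT and fragmented by tagmentation. Expected counts, which need not be whole, TPM and FPKM for each gene and transcript are the authors' deposited estimates, made once with GENCODE M21 (used here) and once with M4 (an alternative), on mm10 per the labels. The percent of its gene held by each transcript was also deposited by the authors; shares recomputed from TPM differed from it by at most 0.0737 points. Not given in the sources used here are the level of the deposited TPM intervals, the aligner and the use of strand. Effective length was length less 99 nt.

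Exon sequences were read from GENCODE M21 transcripts (GRCm38), and aligned with Biopython 1.88. TMM and DESeq2 size factors on expected counts rounded to whole numbers came from edgeR 4.0.16 and DESeq2 1.42.0. Other values were computed in Python 3.11.15 with pandas 2.3.3. The spread, fold counts and exon-pair search were tested on simulated data. The depths of 29633457 and 30118921 expected counts put 3 reads of Fgfr1 at 0.0395 and 0.0392 TPM; such limits cover counting error only.

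The members and lists were chosen with earlier results of these data known. Named were all receptors, transcripts with at least 5% of their gene or at least 0.1 TPM with a IIIb or IIIc exon, the 4 highest genes and the lowest of each pathway list, and Esrp1 and Esrp2. Alternatives were the annotation, unit, minimum TPM, spread percentile, transcripts counted and each library left out. Some named genes and exon sequences that this rule or the isoform results call for are not reported here.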

Additional observations from a re-analysis of the deposited data

How the results depend on the processing

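The IIIc share was over 50% in Fgfr1, Fgfr2 and Fgfr3 under every alternative run. For Fgfr1 it was 99.67% with M4, 99.81% from expected counts and 93.1% with Fgfr1-208 counted as IIIb, an alternative chosen after seeing the data. From FPKM it was 99.72%, but FPKM is proportional to TPM within a library, so this alternative could not move the share beyond rounding. For Fgfr2 it was 65.7% with M4, 59.6% with only transcripts that end in the shared stop codon and 53.3% from expected counts, and for Fgfr3 76.2% with M4. Without either replicate it ranged from 99.716% to 99.719% in Fgfr1, from 53.6% to 54.5% in Fgfr2 and from 79.8% to 82.7% in Fgfr3. Neighbour pairs past the spread were 3, against 4 by the main spread, with the 99th percentile (Fgfr1 and Fgfr2) and with counts not divided by length (Fgfrl1 and Fgfr3). Leaving out either replicate could not change the count of 4 by the main spread. The main rule already asks the ratio in each library to pass the spread. The order and the spread, which needs 2 libraries, were kept from both. The share of Fgfr2-211 in its gene was 10.7% with M4, where Fgfr2-217 was the largest, and 31.3% from expected counts, and Fgfrl1 averaged 37.0 TPM with M4. Genes differing 1.5-fold were 1.90% at a minimum of 5 TPM and 35.5% with no minimum. Among shares of complete coding transcripts, an alternative added after seeing the data with exon content taken from M21, M4 gave 49.2% for the short Fgfr2 transmembrane exon (28.1% with M21), 97.6% for the Fgfr3 acid box exon (71.3%) and 16.5% for the second coding exon of Fgfr2 (25.9%). The cause was not tested; M4 changes all models at once. No paired analysis was possible because there is only 1 group. The 2 libraries and intervals near 0 limit the division among Fgfr3 forms.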
